A study of Rattus norvegicus with 2 samples.

Results

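Nitric oxide is made and sensed in the hypothalamus by a small set of genes, and 10 of them were followed here in spontaneously hypertensive rats (SHR), an inbred strain whose blood pressure climbs with age. The genes were taken by name: the synthase genes Nos1 and Nos3, the synthase partner genes Nos1ap and Nosip, the methylarginine-clearing genes Ddah1 and Ddah2, the cofactor gene Gch1, the soluble guanylate cyclase genes Gucy1a1 and Gucy1b1, and the kinase gene Prkg1. They are 10 of 16114 named genes on the array. The rule that names them uses no measured value, but they were chosen with earlier results of these data known. Each was found through the RefSeq accession of its probes. Together they had 11 probes, with 2 for Ddah1 and 1 for each other gene, and every probe was printed on 1 spot.

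The study measured total RNA of the dissected hypothalamic block of male and female SHR at 9 weeks of age. For each sex, 100 ng of RNA from each of 5 rats was combined into 1 pool, and each pool was labelled with Cy3 and read on 1 single-colour array. The animals of both groups had free access to food and water until they were killed under ether and decapitated, and the labels name no drug, diet or normotensive strain. There is thus 1 value per sex for each spot, no spread between animals, and no test: every difference below describes these 2 pools, and the number of arrays limits its precision.

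Nitric oxide is a gas that nitric oxide synthases release from arginine. In the brain it comes mainly from neurons that hold Nos1, and in vessel walls from endothelial cells that hold Nos3. It diffuses to nearby cells and binds the haem of soluble guanylate cyclase, which makes cyclic GMP, and cyclic GMP in turn activates kinases such as Prkg1. In the paraventricular nucleus of the hypothalamus nitric oxide is known to restrain the sympathetic outflow that sets vascular tone, and Nos1 neurons are also found among the vasopressin and oxytocin neurons.

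A probe is called detected here where the scanner software flagged its spots as well above background. Of 58717 rat transcript spots, 71.6% were detected with male RNA and 73.0% with female RNA. Signals are given as a percent of the 75th percentile of these spots, which lay at 2202.6 scanner units for males and 2254.3 for females. Differences are male minus female on the log2 scale after this scaling, so that a positive value is higher in the male pool. Over the 12062 named genes detected in both pools the median difference was -0.02, with 5% of genes below -0.25 and 5% above 0.32. The hypothalamic marker genes Avp, Oxt, Pomc, Agrp, Hcrt, Pmch, Trh and Gnrh1 were all detected in both pools. Their median difference was -0.02, but they ran from -0.32 for Hcrt to 0.24 for Pomc, 3 favouring males and 5 females.

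2 measures of technical error stand beside each difference. The first is the scanner software's own error for a spot's signal. The second, called the technical SD here, is the SD of a difference on 1 spot, taken from probes that were printed on several spots of an array. It was 0.072 for signals above the 75th percentile, 0.087 at log2 signals of -2 to 0, 0.13 at -4 to -2, 0.25 at -6 to -4 and 0.43 below -6. Neither covers animals, pooling or labelling.

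None of the 9 genes detected in both pools differed 2-fold. Prkg1, undetected in females, was counted at its bound of 1.58-fold, the male signal against the dimmest probe detected in females. That value does not exclude a 2-fold gap. Counted in the same way, 2.88% of the 12623 named genes detected in at least 1 pool reached 2-fold. That background was 1.28% with normexp, a background correction run here on spot and background medians in place of the software's background-subtracted intensity. Its offset shrinks the differences of dim spots, and the change of intensity measure can move values as well. The background was 0.705% without spots that lay beside other 2-fold spots on the slide, where none of the 11 spots of these genes lay. Of the 9 genes detected in both pools, 4 had the higher signal in males and 5 in females, so that 44.4% favoured the males, against 42.8% of all named genes. Their median difference was -0.02, equal to that of all named genes at this rounding, and their differences ran from -0.30 for Gucy1a1 to 0.36 for Nos1. At 1.5-fold, counted only over genes detected in both pools, the count was 0 of 9, against 2.88% of the 12062 such named genes. Prkg1, detected in males only and with a bound of 1.58-fold, is outside that count.

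Counted against the technical SD, 5 of these 9 genes differed by more than it (Nos1, Ddah1, Ddah2, Gucy1a1 and Gucy1b1), and 34.2% of all named genes did so. The count was 3 of 9 with the arrays centred on their medians, where Ddah1 and Ddah2 fell to 0.04 and 0.068, and 3 of 9 with normexp, where Nos1 and Ddah1 fell to 0.24 and 0.02. The share of all named genes was not computed under these 2 settings, so these counts have no background beside them. Against the software's error, which for bright spots is wider than the technical SD, 2 of 9 did (Nos1 and Gucy1a1). The share was 15.0% among all named genes on a single spot. Gucy1a1 was the 1 gene of the 9 outside the range from the 5th to the 95th percentile of named genes of like signal. By construction 5% of named genes lie below that range and 5% above it, so 1 of 9 is close to the share among all named genes.

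**Figure D1:**
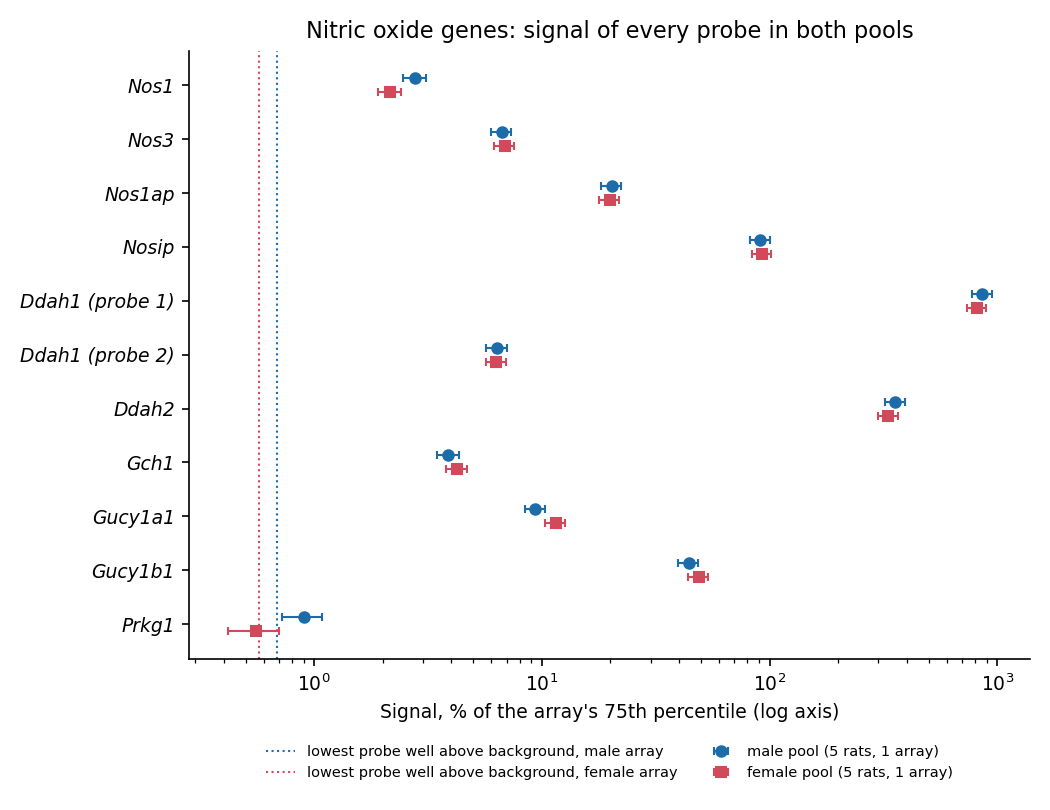
Signal of all 11 probes in the male pool (circles) and the female pool (squares), as a percent of the array's 75th percentile on a log axis. Bars are the scanner software's error of the spot, and dotted lines mark the dimmest detected probe of each array. The bars of the pools part narrowly for Nos1, Gucy1a1 and Prkg1 and overlap for the other 8 probes, and female Prkg1 sits below its line.

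The probes covered most of the brightness range of the arrays. Ranked among the 45591 rat probes with a usable spot, the first Ddah1 probe was at percentile 98.3 on both arrays and Ddah2 at percentiles 96.0 and 95.7 on the male and female arrays. Nosip was at percentile 88.1 on both, Gucy1b1 at 81.7 and 82.5, and Nos1ap at 73.4 and 73.0. Gucy1a1 was at 64.2 and 66.7, Nos3 at 60.1 and 60.6, and Gch1 at 53.7 and 55.0. Nos1 was close to the middle, at 49.6 and 47.1, and Prkg1 was the dimmest, at 37.2 and 32.2. In the deposited matrix, which leaves out dim probes, ranks were lower: Nos1 was at percentiles 25.1 and 21.3 and Prkg1 at 6.6 and 1.72. These genes kept the same order of brightness in both pools, and no percentile moved by more than 5.0 between the arrays.

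Rank orders probes and not transcripts, because brightness depends on the probe's own sequence and place as well as on the RNA. Ddah1 shows how far this goes: both of its probes carry the accession NM_022297, and the first was 135-fold brighter than the second for males and 129-fold for females. The place of Nos1 below Nos3 in this order is therefore no statement about which synthase was more abundant.

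The promoters of Nos1, Gucy1a1 and Gucy1b1 are printed because these are the genes with the widest differences among those measured in both pools. Each sequence is the 250 bases before the gene's annotated start, 5′ to 3′ on the gene's strand, from RefSeq on assembly GRCr8. Capitals mark matches on either strand to the GC box (GGGCGG), the CCAAT box (CCAAT), the TATA box (TATAAA), the cAMP response element (TGACGTCA), its short form (TGACG) and the oestrogen response element (GGTCA and TGACC with 3 bases between them). A full cAMP response element also counts as 2 short forms, and adjoining or overlapping matches run together.
Nos1, chr12:44371838-44372087, minus strand: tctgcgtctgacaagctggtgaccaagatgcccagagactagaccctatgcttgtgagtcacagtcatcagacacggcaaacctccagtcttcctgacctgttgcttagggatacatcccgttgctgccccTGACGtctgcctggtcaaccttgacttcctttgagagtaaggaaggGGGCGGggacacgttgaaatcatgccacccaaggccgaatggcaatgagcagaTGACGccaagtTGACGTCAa
Gucy1a1, chr2:169779624-169779873, minus strand: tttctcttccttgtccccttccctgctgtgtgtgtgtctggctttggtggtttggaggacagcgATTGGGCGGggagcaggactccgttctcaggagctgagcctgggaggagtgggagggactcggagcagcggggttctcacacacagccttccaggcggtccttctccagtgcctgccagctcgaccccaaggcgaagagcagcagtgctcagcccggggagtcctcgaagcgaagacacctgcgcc
Gucy1b1, chr2:169696988-169697237, minus strand: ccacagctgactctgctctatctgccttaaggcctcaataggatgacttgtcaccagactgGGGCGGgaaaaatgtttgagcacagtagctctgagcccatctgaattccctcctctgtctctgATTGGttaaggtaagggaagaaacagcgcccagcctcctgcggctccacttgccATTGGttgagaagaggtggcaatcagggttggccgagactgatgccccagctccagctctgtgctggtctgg

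The Nos1 window held 1 full cAMP response element right before the start, which 1.59% of the 33469 promoter windows of this length in the table hold. It held 4 short forms, of which 2 belong to the full element, and 18.2% of windows have at least 1. The Gucy1a1 and Gucy1b1 windows held no cAMP element of either kind. Each had a GC box, as did Nos1 (30.5% of all windows), and CCAAT boxes, with 1 in Gucy1a1 that overlaps its GC box and 2 in Gucy1b1 (34.0% of all windows). None of the 3 held the oestrogen element, which is in 0.0239% of windows, or the TATA box, which is in 12.9%. GC content was 54.0% for Nos1, 63.2% for Gucy1a1 and 54.8% for Gucy1b1, with a median of 51.2% over all windows. The table held 7 of the 10 genes, without Nos1ap, Nosip and Ddah2. In the windows of Nos3 and Gch1, which are not printed, there were 1 and 2 GC boxes. The Gch1 window also held 1 CCAAT box and 1 short form of the cAMP element, while the windows of Ddah1 and Prkg1 matched none of the 6 motifs. A match describes the letters of this window of the reference and is neither a bound site nor a cause of any difference.

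Nos1, on chromosome 12, encodes the neuronal nitric oxide synthase, a calcium- and calmodulin-dependent enzyme that a PDZ domain tethers beside NMDA receptors. Its probe read 61.1 ± 7.14 units (software error) for males and 48.8 ± 5.8 units for females, or 2.78% and 2.16% once scaled. The male pool was the higher one, by 0.36 on the log2 scale or 1.28-fold. That is 1.46 times the technical SD for so dim a signal, and it exceeds the software's error of the difference, 0.24. Even so, 15.7% of the 2187 named genes with log2 signals of -6 to -4 differed by at least as much. With normexp the difference was 0.24, which is within the technical SD of 0.25.

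Nos3, on chromosome 4, encodes the endothelial synthase. Its probe read 146 ± 15.0 units for males and 155 ± 15.8 units for females, 6.65% and 6.88% once scaled. The pools were nearly level, with a difference of -0.05 against a technical SD of 0.13. The differences of Nos1 and Nos3 lay 0.41 apart, and the technical SD of such a gap is 0.28.

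Markers of the cells that hold Nos3 did not all sit as close. All 8 endothelial marker genes were detected in both pools, 6 favouring males and 2 females, around a median of 0.23 and with a range from -0.13 for Pecam1, an adhesion molecule gene, to 0.70 for Kdr, a receptor gene for vascular endothelial growth factor. Their summed signal was 373.8% for males and 307.0% for females. The 6 neuronal markers, 1 towards males and 5 towards females, had a median of -0.07 and summed to 1714% and 1855%. Their part in the values of Nos3 and Nos1 was not tested. In RNA from a tissue block, fewer cells of a type and less RNA per cell cannot be told apart.

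The genes of the 2 synthase partners were level between the pools. Nos1ap, on chromosome 13, encodes an adaptor that binds the PDZ domain of Nos1 and competes there with the postsynaptic scaffold Dlg4. It read 447 ± 44.8 units for males and 448 ± 44.9 units for females, 20.3% and 19.9% after scaling. The difference of 0.03 is a fraction of its technical SD of 0.13 and took the other sign, -0.0045, when the arrays were centred on their medians. Nosip, on chromosome 1, encodes a ubiquitin ligase that was found as a partner of the endothelial synthase and moves it away from the cell membrane. It read 2007 ± 201 units and 2089 ± 209 units in the male and female pools, 91.1% and 92.7%, and the difference was -0.02 against a technical SD of 0.087.

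Ddah1 and Ddah2 encode dimethylarginine dimethylaminohydrolases, the family named for clearing asymmetric dimethylarginine, a methylated arginine that blocks all nitric oxide synthases. They were the brightest of the 10 genes and both were slightly higher in the male pool. The first Ddah1 probe, for a gene on chromosome 2, read 18891 ± 1890 units for males and 18369 ± 1840 units for females, 858% and 815% once scaled. The difference was 0.07, about equal to the technical SD of 0.072, and the second probe, at 6.36% and 6.31%, differed by 0.01.

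Ddah2, on chromosome 20, read 7852 ± 785 units for males and 7490 ± 749 units for females, 357% and 332%. The male pool was higher by 0.10, or 7.3%, which is 1.4 times the technical SD of 0.072 and less than the software's error of 0.20. At this brightness 20.0% of named genes differed by at least as much. The differences of Ddah1 and Ddah2 lay 0.028 apart, against a technical SD of 0.10 for the gap.

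Gch1, on chromosome 15, encodes GTP cyclohydrolase, the first and rate-limiting enzyme in making tetrahydrobiopterin, which the synthases need to form nitric oxide and which tyrosine and tryptophan hydroxylases need as well. Its probe read 85.4 ± 9.36 units for males and 95.9 ± 10.1 units for females, 3.88% and 4.25%. The male pool was lower by a difference of -0.13, with a technical SD of 0.25. With normexp the sign turned, to 0.083, so that no direction can be given for Gch1.

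The cyclase genes were the pair that leaned towards the female pool. Gucy1a1 encodes the alpha 1 subunit and Gucy1b1 the beta 1 subunit, which carries the haem that binds nitric oxide, and the active enzyme is a dimer of both. In the RefSeq annotation they lie close together on chromosome 2, on the same strand, with 1 listed gene between them, LOC120101147, and both of their printed promoters hold a GC box and a CCAAT box.

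Gucy1a1 read 206 ± 20.8 units for males and 259 ± 26.0 units for females, 9.34% and 11.5% once scaled. The female pool was the higher one: the difference was -0.30, or 1.23-fold, at 2.28 times the technical SD of 0.13. It also exceeded the software's error of 0.21, and 8.91% of the 3097 named genes of like signal differed by at least as much. Gucy1b1 read 973 ± 97.4 units for males and 1100 ± 110 units for females, 44.2% and 48.8%. Its difference was -0.14, or 1.1-fold towards the female pool, at 1.65 times the technical SD of 0.087 but within the software's error of 0.20. Of the 3132 named genes of like signal, 17.5% differed by at least as much. Both subunits thus leaned towards females, as did 6901 of the 12062 named genes detected in both pools. The differences of the subunits lay 0.15 apart, about the technical SD of 0.16 for such a gap.

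Prkg1, on chromosome 1, encodes the type I cyclic GMP-dependent kinase, which relaxes smooth muscle and acts in some neurons. Its probe read 19.9 ± 4.0 units for males, where it was detected, and 12.6 ± 3.19 units for females, where it was not well above background. The dimmest detected probe lay at 15.1 units for males and 12.9 units for females, so both values were near the lowest detected signals. These are not sharp limits, since some brighter probes went undetected. Set against the dimmest probe detected in females, male Prkg1 was 1.58-fold higher, a bound of 0.66. That is 1.52 times the technical SD of 0.43, which rests on 22 repeat probes. The bound is a ratio of dim signals and no guaranteed minimum. With normexp the difference was 0.21, within that SD.

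**Figure D2:**
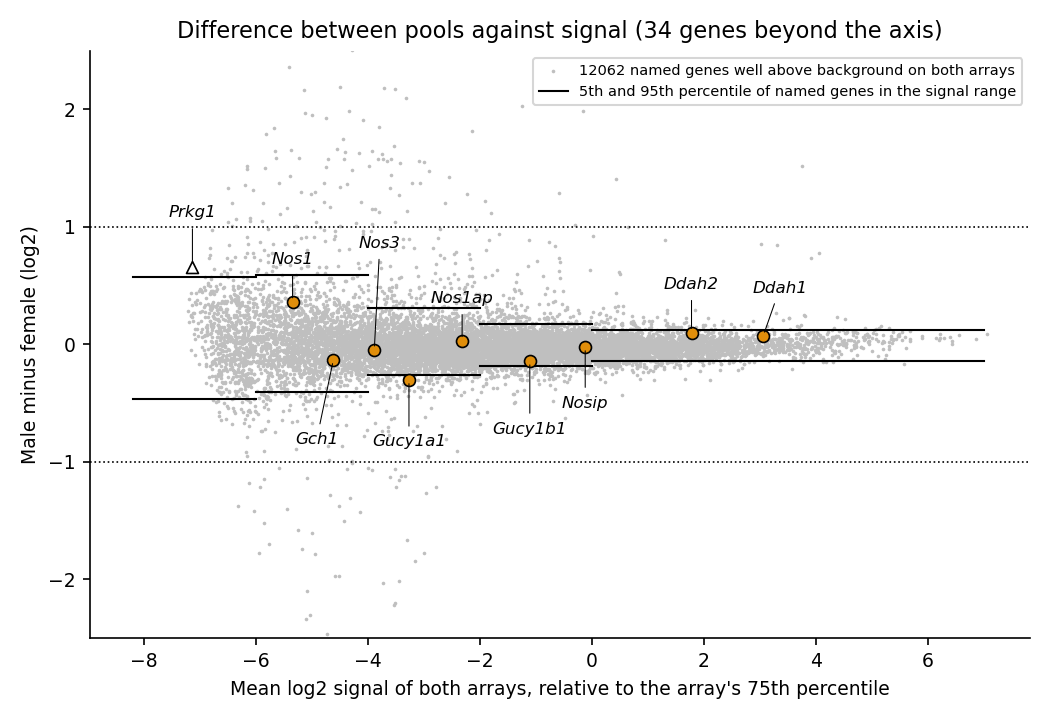
Male minus female log2 difference against mean log2 signal for 12062 named genes (grey) and the 10 nitric oxide genes (orange; the open triangle for Prkg1 is a bound). Black lines are the 5th and 95th percentiles of named genes in each signal range, dotted lines mark 2-fold, and 34 genes lie beyond the axis. Of the nitric oxide genes detected on both arrays, Gucy1a1 is the 1 outside the black lines, which by construction leave out 5% of named genes on each side. The spread of all genes widens towards dim signals.

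Position on the slide was checked for each spot, since spots at least 2-fold apart on this slide lay together: 72.2% of them were in patches, meaning that among the 18 closest detected spots of other probes 2 or more were also 2-fold apart, all in 1 direction, against 10.6% of other detected spots. None of the 11 spots was in a patch. The median difference of the 18 nearest spots was 0.011 around the Nos1 spot, 0.015 around Gucy1a1, -0.073 around Gucy1b1 and 0.08 around Prkg1. The neighbours of Gucy1b1 thus leaned the same way as Gucy1b1 itself, whereas those of Nos1 and Gucy1a1 were close to 0.

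Around these 10 genes, 71 further genes of the pathway were grouped into 8 lists. Of the 67 on the array, 54 were detected in both pools: 26 favoured males and 28 females, and the median difference was -0.0048. Of 56 detected in at least 1 pool, 3 exceeded 2-fold towards males, as 1.89% of all named genes did, and 0 towards females, as 0.998% did. All 3 spots lay in patches.

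Of the 13 synthase partners, 12 were detected in both pools, 6 favouring males and 6 females, and the median was -0.006. Nostrin, which encodes a protein that brings the endothelial synthase inside the cell, was the farthest from 0, at 3.88% for males and 4.97% for females, a difference of -0.36 (technical SD 0.25). Cav1, the gene of the caveolar protein that holds the endothelial synthase inactive, was at 66.4% and 59.8%, a difference of 0.15 over 9 spots. The inducible synthase Nos2 had 2 probes, neither of them well above background in either pool. On their brightest probes 5 abundant partners were within the technical SD of 0.072: the calmodulin genes Calm2 and Calm3, the chaperone genes Hsp90aa1 and Hsp90ab1, and the dynein light chain gene Dynll1 lay between -0.04 and 0.04. The scaffold gene Dlg4 was at 0.08 with a technical SD of 0.25.

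In arginine supply 2 genes favoured males and 4 females, and the median of -0.11 was the farthest from 0 among the 8 lists. Arg1, the arginase that competes with the synthases for arginine, was at 55.9% for males and 68.7% for females, a difference of -0.30 with a technical SD of 0.087. The arginine transporter gene Slc7a2 was dim, at 1.02% and 0.88%, and its difference of 0.22 is within its technical SD of 0.43. Slc7a3, a neuronal transporter of the same family, was at 182% and 210%, or -0.21 with a technical SD of 0.072. Ass1 and Asl, which remake arginine from citrulline, were at -0.12 and -0.09, both in the same direction.

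The methyltransferases that give rise to methylarginines and the enzymes of the cofactor were close to level. In the first list 2 genes favoured males and 3 females, around a median of -0.01. Prmt3 was at 2.7% and 3.27%, a difference of -0.28 with a technical SD of 0.25, and the brain-restricted Prmt8 was at 0.09. The tetrahydrobiopterin list divided evenly, 3 against 3, around a median of -0.02. Spr, the last enzyme of cofactor synthesis, was at -0.11 with a technical SD of 0.13.

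Other cyclase genes lay on both sides of 0. Gucy1a2, the alternative alpha subunit, was at 21.4% and 21.6%, a difference of -0.01, and Npr2, a natriuretic peptide receptor with its own cyclase, was at -0.02. Npr1, the receptor of atrial natriuretic peptide, had a difference of 0.23, and its spot lay in a patch. Gucy2c, the guanylin receptor gene, was at 2.24% for males and, not well above background, 0.15% for females. Its bound was 3.92-fold towards males, on a spot in a patch. Gucy1b2 was not well above background in either pool. Over the 5 genes of this list detected in both pools, 2 favoured males and 3 females, and the median was -0.01. Among the 3 is Guca1a, at -0.18, which encodes a cyclase activator and not a cyclase.

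Among targets of cyclic GMP 3 genes favoured males and 2 females, around a median of 0.04. Irag1, whose product is phosphorylated by Prkg1 and curbs calcium release, was at 37.2% and 31.6%, a difference of 0.23 with a technical SD of 0.087. The large-conductance potassium channel gene Kcnma1 was at 0.09, with 0.16 on its second probe. Prkg2, the second cyclic GMP-dependent kinase gene, was detected in both pools at 1.99% and 2.06%, a difference of -0.05. Of the genes listed as phosphodiesterases of cyclic GMP, 7 favoured males and 3 females, around a median of 0.03. Among the 3 is Pde6d, at -0.01, which encodes a noncatalytic subunit. Pde3a was at 3.0% and, not well above background, 0.439%, a bound of 5.24-fold towards males, and Pde11a was at 2.35% and 0.819%, a difference of 1.52. Both were on single spots in patches. The bright genes Pde2a and Pde10a, both abundant in brain, were at -0.08 and 0.01. Of those whose enzymes are specific for cyclic GMP, Pde5a was at 0.01 on its brightest probe and 0.22 on another, and Pde9a, whose spot lay in a patch, was at 0.18.

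Among genes whose products bind or remove nitric oxide, 1 favoured males and 4 females, around a median of -0.008. Cygb, which encodes the haem protein cytoglobin, was at 277% and 314%, a difference of -0.18 with a technical SD of 0.072, and the neuroglobin gene Ngb was at 0.05. Red cell genes, whose haemoglobin binds nitric oxide, differed more than the median of any of these lists: each of 4 favoured males, from 0.48 for Alas2 to 0.88 for Ahsp, and their summed signal was 179.2% against 100.6%. Meningeal fibroblast genes were also higher, all 7 of them, by a median of 1.21, with sums of 221.6% and 90.5%. Mural genes, which mark the smooth muscle and pericytes where Prkg1 acts, had 6 towards males and 1 towards females around a median of 0.08, with sums of 86.8% and 81.7%. Astrocyte, oligodendrocyte and microglial markers, 6, 5 and 5 genes, each favoured males, with list medians of 0.08, 0.14 and 0.09. The part of these cell types in the values of the 10 genes was not tested.

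**Figure D3:**
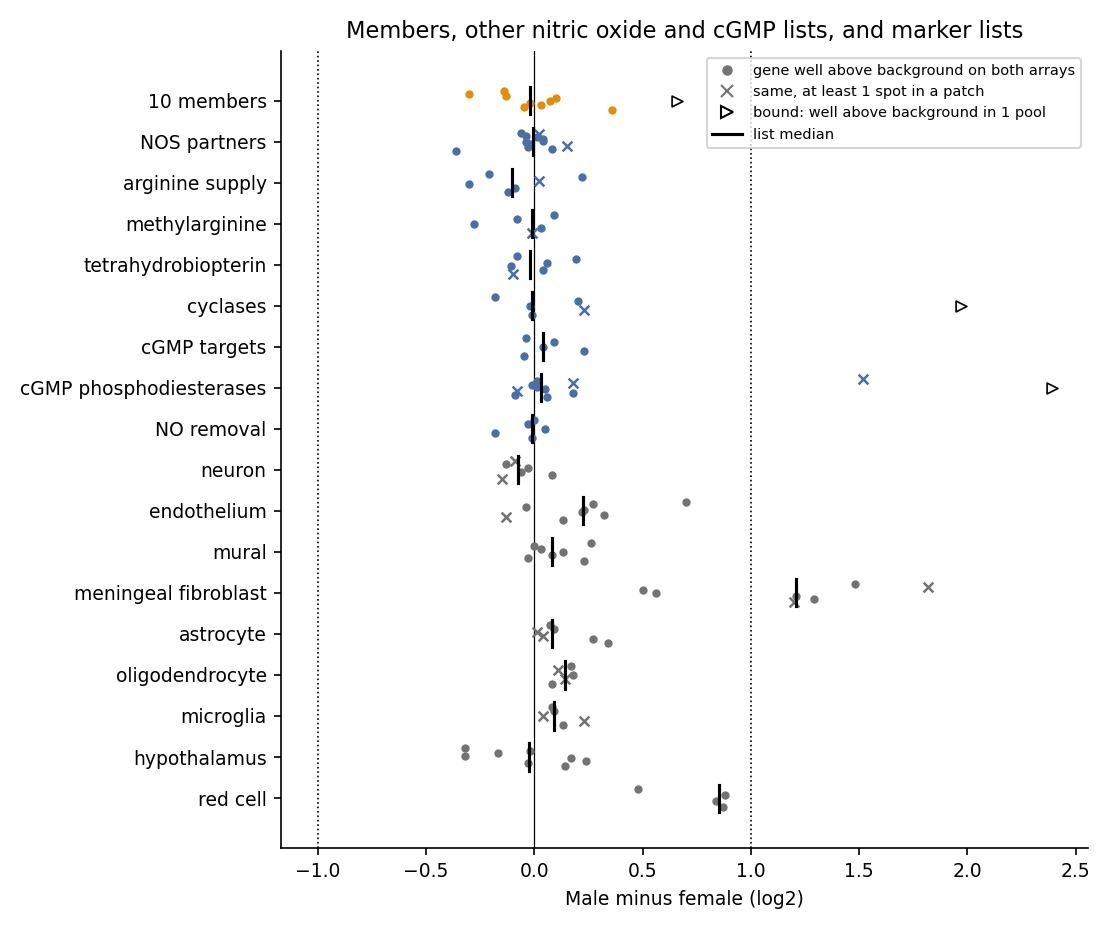
Male minus female log2 differences of the 10 nitric oxide genes (orange), 8 further pathway lists (blue) and 9 marker lists (grey). Points are genes detected in both pools, crosses have at least 1 spot in a patch, open triangles are bounds and black bars are list medians. The pathway medians lie between -0.11 and 0.04, whereas the red cell and meningeal lists have medians of 0.86 and 1.21.

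The direction of 8 of the 10 genes was kept in all 9 other ways of processing the arrays that gave a value, and Nos1ap and Gch1 each took the other sign in 1 of them. Most of these ways had little room to alter a value. Choices on patches, outlier spots, detection, the deposited matrix and probe averaging left genes with 1 probe nearly unchanged by design. Median centring and the other percentile moved all genes by the same amount. Only quantile normalization and normexp could move genes separately. Nos1 ran from 0.24 to 0.37, Gucy1a1 from -0.33 to -0.23, Gucy1b1 from -0.18 to -0.13, Ddah1 from 0.02 to 0.085 and Ddah2 from 0.068 to 0.12. Nos3 stayed between -0.12 and -0.039 and Nosip between -0.058 and -0.014, all within their technical SDs.

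**Figure D4:**
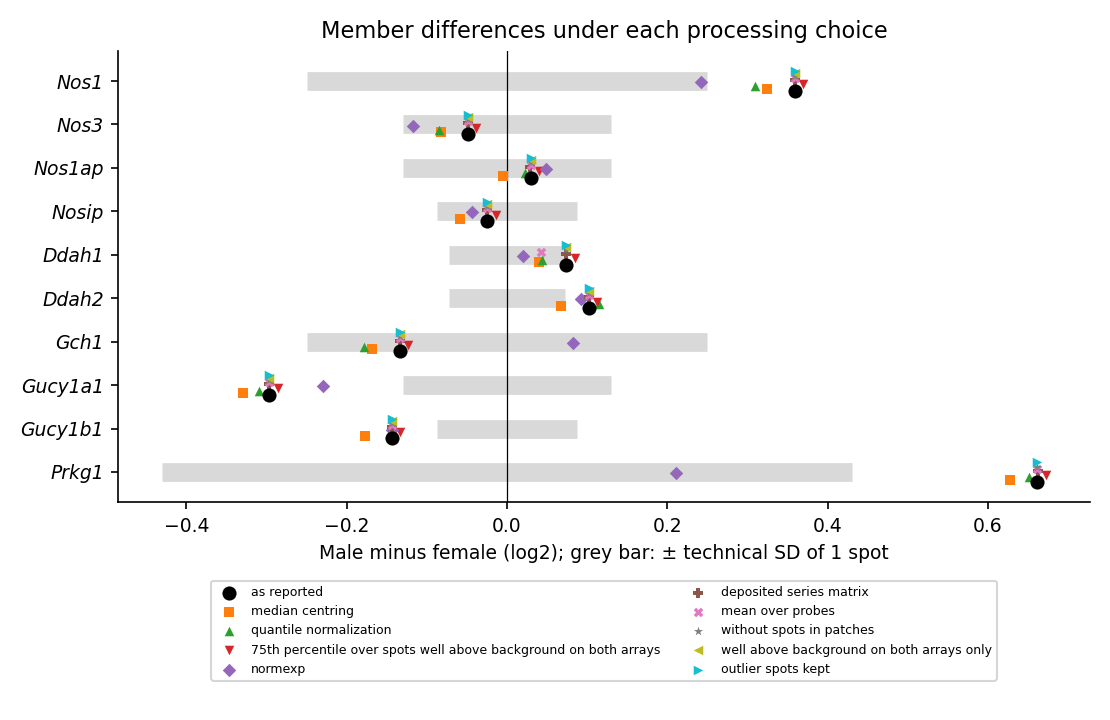
Male minus female log2 difference of each gene as reported (black) and under 9 other processing choices (coloured), over a grey bar of plus and minus 1 technical SD. Gucy1a1 and Gucy1b1 lie outside the bar under every choice, Nos1 reaches the bar's edge with normexp, and Nos1ap and Gch1 cross 0.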

How the data were processed

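Hypothalamic RNA of 1 pool of 5 male and 1 pool of 5 female SHR was hybridised to 1 Agilent array each. Per the file headers, the deposited array files hold the background-subtracted spot intensity of Feature Extraction 11.5.1.1, with no scaling between arrays, its error, medians and flags; the submitters' processing notes name version 9.1. The deposited series matrix holds the same intensity divided by the 75th percentile and multiplied by 100, as its ratio to the array files showed.

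The 664 spots flagged as outliers in at least 1 file were dropped, and none was saturated. Log2 intensity was centred on each array's 75th percentile and averaged over a probe's spots. A probe counted as detected if over 50% of its spots were flagged well above background, and an undetected side was raised to the dimmest detected probe. Accessions of 46.3% of probes matched 1 symbol of the RefSeq table of GRCr8; locus identifiers were not counted as named, and the brightest probe stood for a gene. Genes named outside the 10 were those at least 2-fold apart in each list, or otherwise the 2 with the widest differences, with others added after their values were seen; some are not reported here. No test was possible, and 2-fold was the size threshold. The steps were tested on simulated data. Members and lists were chosen with earlier results of these data known. Python 3.11.15, R 4.3.3 and limma 3.58.1 (normexp on spot and background medians, offset 50) were used.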

Additional observations from a re-analysis of the deposited data

How the results depend on the processing

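No member reached 2-fold under any of the 9 alternatives, with Prkg1 counted at its bound: median centring, quantile normalization, a percentile over well-measured spots, normexp, the deposited matrix, the mean over probes, no spots in patches, both arrays only, and outlier spots kept. Most of these had little room to change members that have 1 probe on 1 spot outside any patch. The median of the members ran from -0.058 with median centring to 0.02 with normexp, which splits them 3 to 6 and 5 to 4 (higher to lower) in place of 4 to 5. Of 89 member values, 1 moved by more than its technical SD, Prkg1 with normexp at 0.21, and requiring both arrays leaves no value for Prkg1. Level ranks moved in 31 of 158 cases, 20 of them with the matrix, which leaves out dim probes. Members beyond the technical SD numbered 5 of 9, but 3 with median centring or normexp and 4 with quantile normalization or the mean over probes. The matching shares of all named genes under these alternatives were not computed. Named genes at least 2-fold apart numbered 364, but 161 with normexp, 173 on both arrays only and 80 without patches, where 81.2% rather than 65.4% were higher in the male pool. The cause of that shift in share was not tested; patches are themselves defined by neighbouring 2-fold differences. No paired analysis was possible because each sex has 1 pool. Signal over background limits Prkg1, Nos1 and Gch1 most.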
